A study of Mus musculus with 6 samples.

Results

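The replication-dependent histone genes were taken as every gene in the count table whose symbol begins with Hist1h, Hist2h, Hist3h or Hist4h, which gave 70 of 48440 genes. By the class written in the symbol, 6 of them encode the linker histone H1, 20 encode H2A, 19 encode H2B, 12 encode H3 and 13 encode H4. In GENCODE M21, 67 were annotated as protein-coding and 3 as pseudogenes (Hist1h2aj, Hist1h2al and Hist3h2bb-ps). The samples were L3/4 dorsal root ganglia (DRGs), which hold the cell bodies of sensory neurons with their glia, from male wild-type (WT) mice whose age the labels do not give. The ganglia on 1 side had been microinjected with AAV5, an adeno-associated virus. In the control group the virus carried Gfp, the gene of green fluorescent protein (AAV5-Gfp, 3 libraries), and in the other group it was AAV5-V1 mixed with AAV5-V2, which carry the transcript variants of the long noncoding RNA NIS-lncRNA (AAV5-V1+V2, 3 libraries). Tissue was collected 5 weeks after microinjection by one statement of the design and 4 weeks by another, and each group received its own virus preparation. The comparison asks how the DRG transcriptome differs when NIS-lncRNA is supplied by virus. The labels do not say that the libraries of a group came from separate animals, so that the p-values measure only the spread between these samples, which may be technical.

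Histones package DNA into nucleosomes. An octamer of the core histones H2A, H2B, H3 and H4 carries the wound DNA, and H1 binds the linker DNA between nucleosomes. Replication-dependent histone genes are expressed mostly in S phase, when newly made DNA has to be packaged, and they lie in clusters of many near-identical copies without introns. Most of their transcripts end in a conserved stem-loop in place of a poly(A) tail. The stem-loop-binding protein SLBP and the U7 small nuclear ribonucleoprotein direct the cut behind the stem-loop. In differentiated, non-dividing cells some of these genes also make longer transcripts with a poly(A) tail. The libraries were made from total RNA with a stranded total RNA kit, so that transcripts without a poly(A) tail could be counted. Of the 70 genes, 56 lie on chromosome 13, 10 on chromosome 3, 3 on chromosome 11 and 1 on chromosome 6.

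The 3′ stem-loop is shown because it defines the family. A motif of 16 bases, GGNNCTTTNNAGNNCC with 6 base pairs and a loop of 4 bases, was looked for on the transcript strand after the stop codon of every GENCODE M21 transcript. It was present in 44 of the 70 histone genes and in 5 of 21119 other genes with an annotated 3′ UTR (0.0237%), among them the histone variant gene H2afx. The 6 forms found are shown by 8 members, with the stem-loop in capitals.
Hist1h1c: aaaaGGCTCTTTTCAGAGCCaccactccca
Hist1h2ap: aaaaGGCTCTTTTCAGAGCCatc
Hist1h2ao: aaaaGGCTCTTTTCAGAGCCatccacagtg
Hist1h2bb: caaaGGCTCTTTTAAGAGCCacccacactt
Hist2h2ac: aaaaGGCTCTTTTTAGAGCCaccaaatctt
Hist1h4n: taaaGGCCCTTTTCAGGGCCatccaattaa
Hist1h4i: taaaGGCCCTTTTTAGGGCCaccacaaaat
Hist1h4j: taaaGGTCCTTTTCAGGACCaccacatctt
These stem-loops lie, in GRCm38, at chr13:23739512-23739527 on the plus strand for Hist1h1c, chr13:21833029-21833044 on the minus strand for Hist1h2ap, chr13:21810898-21810913 on the plus strand for Hist1h2ao, chr13:23747203-23747218 on the plus strand for Hist1h2bb, chr3:96220418-96220433 on the minus strand for Hist2h2ac, chr13:21831798-21831813 on the minus strand for Hist1h4n, chr13:22040966-22040981 on the minus strand for Hist1h4i and chr13:21735437-21735452 on the plus strand for Hist1h4j, all in the annotated 3′ UTR. The form of Hist1h1c and the pair Hist1h2ap and Hist1h2ao was the commonest, with 26 genes of classes H1, H2A, H2B and H3 and none of H4. Positions are counted from 1 at the 5′ end of the stem-loop. Relative to the commonest form, Hist1h2bb and 5 other genes carried C10A in the loop, and Hist2h2ac carried C10T. All 11 H4 genes with a stem-loop differed from that form within the stem. Hist1h4n and 6 others carried T4C and A13G, Hist1h4i and 1 other carried these with C10T, and Hist1h4j and 1 other carried C3T, T4C, A13G and G14A, so that all 6 base pairs were kept in each. The stem-loop began between 21 and 58 bases after the stop codon (median 31). The other 26 genes had no such match. For many of them the annotated transcript stops at or near the stop codon, so that for these the absence describes the gene models. Others had a long annotated 3′ UTR without a match to this motif, such as Hist2h2be (2192 bases) and Hist1h2bc (742 bases).

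Promoters are shown for the member with the largest fold change (Hist1h2bb), the member with the smallest p (Hist1h3h), a much-read H4 gene whose window lacks CCAAT (Hist1h4n) and the H1 gene with the most reads (Hist1h1c). Windows of 250 bases before to 50 after the annotated start were taken from RefSeq (GRCm38.p6) and matched 62 of the 70 genes. Capitals mark any match to ATTTGCAT (the octamer motif known from H2B promoters), TATAAA, the core of a TATA box, or CCAAT, the box bound by factor NF-Y. Both strands were searched over the whole window and motifs were allowed to overlap. A marked TATAAA therefore need not stand where a TATA box would, as in the window of Hist1h4n, and its use was not tested.
Hist1h2bb: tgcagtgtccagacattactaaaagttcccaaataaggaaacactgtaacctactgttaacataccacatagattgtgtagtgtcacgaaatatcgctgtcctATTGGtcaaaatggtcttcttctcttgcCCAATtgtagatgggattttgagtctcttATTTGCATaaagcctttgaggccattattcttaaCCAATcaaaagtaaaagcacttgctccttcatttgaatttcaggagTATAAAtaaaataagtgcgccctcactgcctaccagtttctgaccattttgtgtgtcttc
Hist1h3h: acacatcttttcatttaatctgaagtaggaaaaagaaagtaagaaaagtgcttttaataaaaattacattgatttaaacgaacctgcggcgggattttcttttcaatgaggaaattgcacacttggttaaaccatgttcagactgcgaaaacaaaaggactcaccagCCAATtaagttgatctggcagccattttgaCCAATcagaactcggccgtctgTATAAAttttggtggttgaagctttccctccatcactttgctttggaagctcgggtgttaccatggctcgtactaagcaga
Hist1h4n: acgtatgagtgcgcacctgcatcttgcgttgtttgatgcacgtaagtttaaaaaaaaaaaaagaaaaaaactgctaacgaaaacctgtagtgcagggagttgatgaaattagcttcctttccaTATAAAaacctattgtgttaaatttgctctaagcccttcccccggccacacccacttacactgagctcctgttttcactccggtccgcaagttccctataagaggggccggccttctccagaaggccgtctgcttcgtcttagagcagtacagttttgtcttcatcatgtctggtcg
Hist1h1c: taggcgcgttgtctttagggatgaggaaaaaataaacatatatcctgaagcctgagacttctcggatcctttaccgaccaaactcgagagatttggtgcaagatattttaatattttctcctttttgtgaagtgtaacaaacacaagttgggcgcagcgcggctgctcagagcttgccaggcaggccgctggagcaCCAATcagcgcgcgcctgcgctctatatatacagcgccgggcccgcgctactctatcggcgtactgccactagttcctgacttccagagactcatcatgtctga
These windows are chr13:23746484-23746783 on the plus strand for Hist1h2bb, chr13:21717378-21717677 on the plus strand for Hist1h3h, chr13:21832148-21832447 on the minus strand for Hist1h4n and chr13:23738557-23738856 on the plus strand for Hist1h1c. The octamer was found in 14 of the 62 windows (22.6%), against 1.74% of all 32851 RefSeq windows. Of these 14, 7 belonged to H2A genes and 7 to H2B genes, and none of the H1, H3 or H4 windows held it. TATAAA was found in 35 of 62 (56.5%, against 13.6% of all windows) and CCAAT in 53 of 62 (85.5%, against 37.4%). Every H1, H2A, H2B and H3 window held CCAAT, and 3 of 12 H4 windows did, as the window of Hist1h4n shows by its lack. H2A and H2B genes shared 14 intergenic spaces head to head, with between 172 and 305 bp (median 246) between their annotated starts, so that members of such a pair can hold the same motifs.

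The 6 libraries held between 32025612 and 34764282 counts, and no 2 libraries of a group agreed within sampling noise. Levels are given as CPM, the reads of a gene relative to the library total after scaling by the trimmed mean of M values (TMM), as mean ± SD with n = 3. Genes were tested with the quasi-likelihood test of edgeR over 18593 genes that passed its filter on low counts, and a gene was called at a Benjamini-Hochberg adjusted p under 0.05. Markers of the tissue were present, and 11 neuron markers summed to 8312 ± 285 CPM with AAV5-Gfp.

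Histone transcripts were higher in the AAV5-V1+V2 DRGs in every class. Of the 62 histone genes that passed the filter, 37 rose and 0 fell, while 10.1% of all genes tested rose and 5.27% fell. At an unadjusted p under 0.05 the numbers were 41 and 0, against 19.2% and 15.5% of all genes tested, and DESeq2 and limma-voom also called 0 lower. The median log2 fold change was 0.87 (range −1.22 to 1.75) over the 62 genes and −0.0003 over all genes tested. Of the 62, 43 were higher in each AAV5-V1+V2 library than in any AAV5-Gfp library and 0 were lower in each, against 23.4% and 22.0% of all genes tested. Within the AAV5-V1+V2 group, replicate 1 had the highest level in 50 of the 62 genes. Without that library 31 rose, all among the 37, and the median was 0.63. The calls did not outlast the loss of a control library: 2 rose without AAV5-Gfp replicate 1 (Hist1h2ap and Hist1h3h), and 0 rose without replicate 2 or without replicate 3, where 41 of 63 and 44 of 62 tested were higher at an unadjusted p under 0.05, against 15.4% and 15.5% of all genes tested in those fits. In those 3 fits only 257, 12 and 15 of all genes rose, and the median over histone genes stayed between 0.84 and 0.91.

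**Figure D1:**
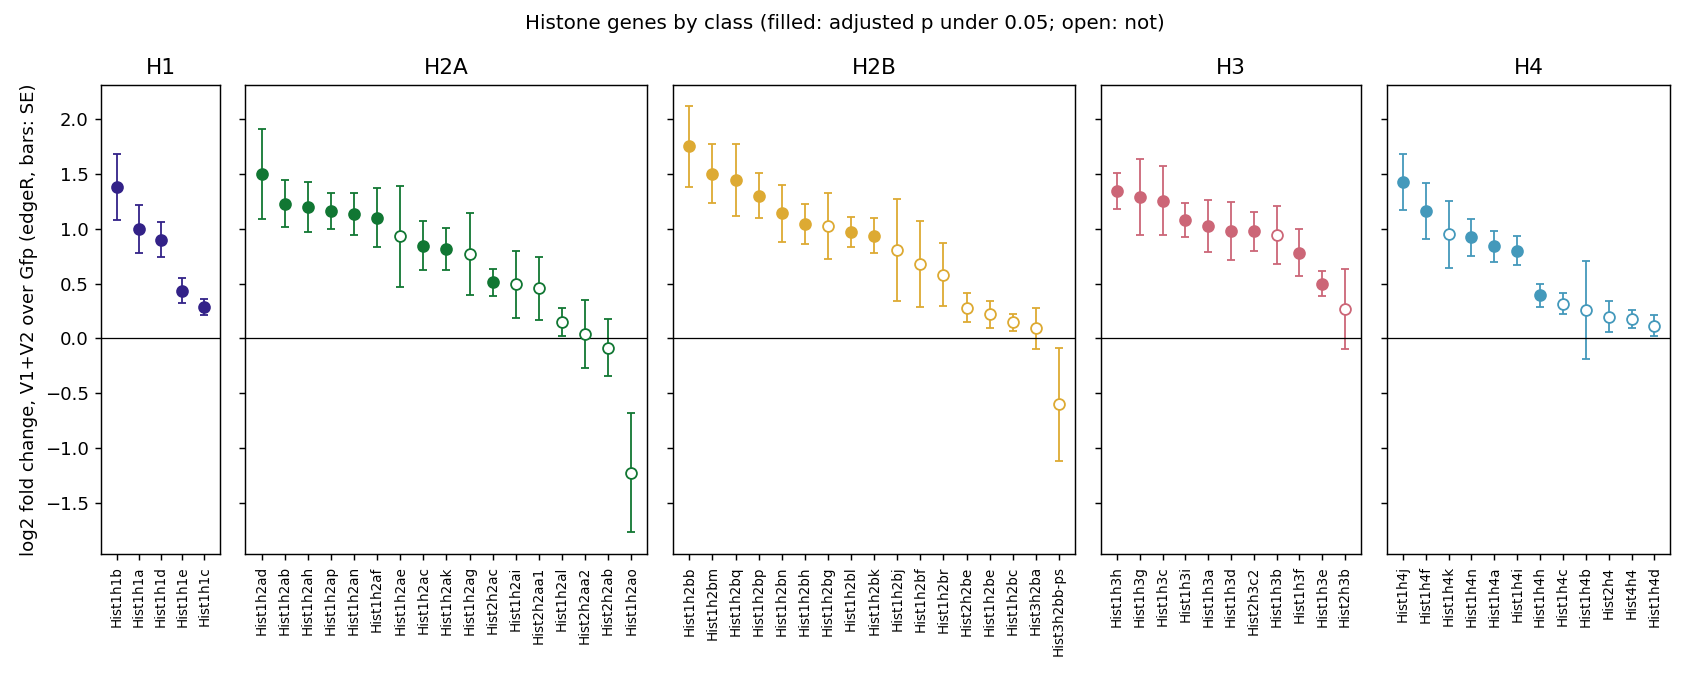
The log2 fold change of AAV5-V1+V2 over AAV5-Gfp (vertical axis, edgeR estimate with its SE) is plotted for each of the 62 tested histone genes, sorted within the 5 classes. Filled points passed an adjusted p under 0.05: 37 points are filled, all above 0, and 3 open points lie below 0.

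Summing all members of a class, tested or not, gives a level that does not depend on how the counted reads were divided among its copies. Reads that fit several copies, if the counting left them out, are missing from the sums as well. The whole family summed to 368, 378 and 388 CPM in the AAV5-Gfp libraries and to 652, 503 and 505 CPM in AAV5-V1+V2 replicates 1, 2 and 3, which is 1.47-fold. Each class sum was likewise higher in each AAV5-V1+V2 library than in any control, with replicate 1 the highest. H3 differed most, from 37.0, 39.2 and 38.1 CPM to 87.8, 60.6 and 64.7 CPM (1.86-fold). H4 differed least, from 122, 127 and 127 CPM to 199, 154 and 162 CPM (1.37-fold). H1 stood at 1.40-fold, H2A at 1.44-fold and H2B at 1.50-fold. The H2A sum includes the pseudogene Hist1h2al, which held 30.5 of its 62.0 CPM in the controls and 33.9 of 89.6 CPM with AAV5-V1+V2. The 18 H2A genes with a promoter window, which leave out Hist1h2al, went from 31.4 to 55.6 CPM. Since these sums run over chosen genes, they carry no test, and differences between classes were not tested. Without AAV5-V1+V2 replicate 1 the log2 ratio of the whole family was 0.42 in place of 0.55, and that of H3 was 0.72 in place of 0.90. In bulk tissue, more cells of a type and more RNA per cell cannot be told apart.

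**Figure D2:**
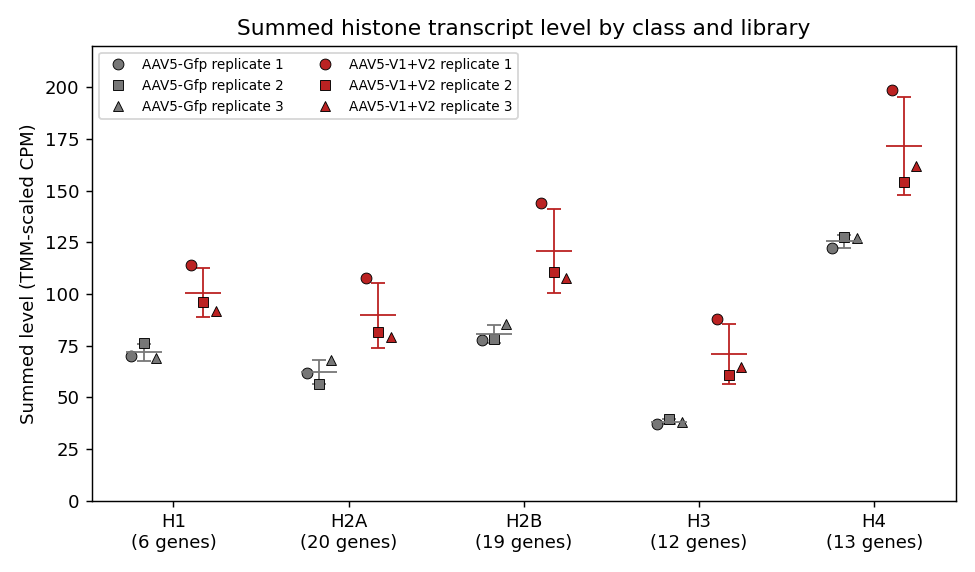
Summed level of each histone class (vertical axis, TMM-scaled CPM, from 0) in each of the 6 libraries, with the group mean and SD. In all 5 classes the 3 AAV5-V1+V2 libraries lie above the 3 AAV5-Gfp libraries, and AAV5-V1+V2 replicate 1 is the highest, for example 87.8 CPM against 60.6 and 64.7 CPM for H3.

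H1 linker histones rose in 5 of 5 tested genes, with a median log2 fold change of 0.90. Hist1h1c, at chr13:23738808-23740367, was the H1 gene with the most reads. It measured 43.7, 46.0 and 41.1 CPM with AAV5-Gfp and 54.7, 54.6 and 50.4 CPM with AAV5-V1+V2. The groups did not overlap, yet its log2 fold change of 0.29 (SE 0.07, adjusted p = 0.0387) was the smallest of the class and of all called histone genes. Hist1h1b had the largest, 1.38 (SE 0.30, adjusted p = 0.0279), from 2.96 ± 0.58 to 7.73 ± 3.16 CPM, the wide spread coming from 11.4 CPM in replicate 1 against 5.65 and 6.18 CPM in the others. Hist1h1a and Hist1h1d rose by 0.99 and 0.90. Hist1h1e rose by 0.44, from 15.1 ± 1.1 to 20.4 ± 2.6 CPM, and it overlaps part of Hist1h2be on the same strand. The testis-specific linker histone gene Hist1h1t had 1 to 4 reads in every library and was not tested.

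In the H2A class 9 of 17 tested genes rose and 0 fell, with a median of 0.82. Hist1h2ap had the smallest p of the class, with 3.59, 2.91 and 3.65 CPM in the controls and 8.97, 7.0 and 6.79 CPM with AAV5-V1+V2 (log2 fold change 1.16, SE 0.16, adjusted p = 0.0144). Its lowest AAV5-V1+V2 library was above its highest control. Hist1h2ab rose by 1.23 (from 3.39 ± 0.49 to 7.97 ± 2.10 CPM), Hist1h2an by 1.13 and Hist1h2ah by 1.20. Hist1h2ad had the largest change of the class, 1.50, but rested on 10 to 29 reads in the controls and 35 to 73 reads in the other group (SE 0.41, adjusted p = 0.0486), and the call was also lost with limma-voom and without AAV5-V1+V2 replicate 1 or replicate 2. Hist2h2ac, of the cluster on chromosome 3, rose by 0.51 (SE 0.12), from 6.38, 5.89 and 5.35 CPM to 9.27, 8.05 and 7.81 CPM. Hist1h2af and Hist1h2ak rose by 1.10 and 0.82.

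The H2A gene with the most reads was a pseudogene. Hist1h2al, a processed pseudogene at chr13:51202727-51203065 far from the chromosome 13 cluster, measured 31.8, 26.1 and 33.7 CPM with AAV5-Gfp and 38.4, 33.7 and 29.5 CPM with AAV5-V1+V2. The groups overlapped, and the log2 fold change of 0.15 (SE 0.13) had an adjusted p of 0.441. Per kb of exon it stood at 90.1 CPM in the controls, above every other member, and this level was not followed further. Every H2A gene, the 9 that rose among them, has another annotated gene on the opposite strand. The sources used here do not say whether strand was used in counting, so that reads of the 2 strands cannot be told apart.

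In the H2B class 8 of 17 tested genes rose and 0 fell, with a median of 0.94. Hist1h2bb, at chr13:23746734-23747241, had the largest fold change of all members. It measured 0.81, 1.36 and 1.12 CPM in the controls and 5.71, 2.91 and 2.48 CPM with AAV5-V1+V2, without overlap (log2 fold change 1.75, SE 0.37, adjusted p = 0.0261). Replicate 1 was the highest, and replicates 2 and 3 were close to each other. Hist1h2bl had the smallest p of the class and a tighter pattern, from 4.43, 4.27 and 5.16 CPM to 10.3, 8.44 and 8.51 CPM (0.97, SE 0.14, adjusted p = 0.0144). Hist1h2bm rose by 1.50, Hist1h2bq by 1.44, Hist1h2bp by 1.30, Hist1h2bn by 1.14 and Hist1h2bh by 1.04. Hist1h2bk, the called H2B gene with the most reads, rose by 0.94, from 7.10 ± 0.58 to 13.6 ± 2.7 CPM.

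The 2 H2B genes with more reads than Hist1h2bk did not pass. Hist1h2bc measured 28.3, 25.7 and 30.3 CPM in the controls and 32, 30.1 and 31.1 CPM in the other group, where replicate 2 lay below the highest control (0.15, SE 0.08, adjusted p = 0.236). For Hist1h2be the value was 0.22 (SE 0.13, adjusted p = 0.253), and replicate 3 at 14.2 CPM lay within the control range of 13.7 to 15.4 CPM. The gene model of Hist1h2bc reaches well past its coding exon, and that of Hist1h2be overlaps Hist1h1e. Hist1h2bg, at 1.02 with an adjusted p of 0.0592, had groups that did not overlap.

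In the H3 class 9 of 11 tested genes rose and 0 fell, with a median of 0.98, and all 11 had a positive fold change. Hist1h3h, at chr13:21717659-21718069, had the smallest p of all 62 members. It measured 2.66, 3.12 and 2.76 CPM in the controls and 8.27, 5.89 and 7.58 CPM with AAV5-V1+V2 (1.35, SE 0.17, adjusted p = 0.0139). Its libraries did not overlap, and replicate 1 was close to replicate 3. Hist1h3i rose by 1.08 (SE 0.16), from 3.60 ± 0.27 to 7.62 ± 1.29 CPM, Hist1h3c by 1.26 and Hist1h3a by 1.02. Hist2h3c2 of the chromosome 3 cluster rose by 0.98 (SE 0.18), from 4.96, 4.56 and 3.62 CPM to 10.2, 8.50 and 7.23 CPM. Hist1h3e, the H3 gene with the most reads, changed least among the called H3 genes, by 0.50 (from 10.6 ± 0.5 to 15 ± 1.8 CPM), followed by Hist1h3f at 0.78. Of the other 2, Hist1h3b was at 0.94 with an adjusted p of 0.0534 and Hist2h3b had 6 to 13 reads per library.

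The H4 class had the lowest median log2 fold change, 0.60. Of 12 tested genes, 6 rose and 0 fell, and all 12 had a positive fold change. Hist1h4n measured 10.9, 12.4 and 13.2 CPM in the controls and 29.1, 19.1 and 21 CPM with AAV5-V1+V2 (0.92, SE 0.17, adjusted p = 0.0191), the largest difference in CPM of any member. Hist1h4i had the smallest p of the class, from 4.55, 4.24 and 3.72 CPM to 7.05, 6.88 and 7.90 CPM (0.80, SE 0.13, adjusted p = 0.0159), and here replicate 3 was the highest. Hist1h4j rose by 1.43 (SE 0.26), Hist1h4f by 1.17 and Hist1h4a by 0.84. Hist1h4h, the called H4 gene with the most reads, rose by 0.39, from 20.8, 22.4 and 22.1 CPM to 32.5, 27.7 and 25.6 CPM (SE 0.10, adjusted p = 0.0424). This call was lost with limma-voom, with the replicate number as a block and without AAV5-V1+V2 replicate 2.

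The remaining H4 genes with many reads did not pass. Hist1h4d measured 31.9, 33.2 and 34.0 CPM in the controls and 40.7, 32.1 and 34.6 CPM in the other group, with replicate 2 below 2 of the 3 controls (0.12, SE 0.10, adjusted p = 0.418). Hist1h4c, at 0.32 (SE 0.09), had groups that did not overlap and an adjusted p of 0.0585. Hist4h4, the only member on chromosome 6, was at 0.18 (SE 0.08, adjusted p = 0.163), and Hist2h4 was at 0.20. Hist1h4k was at 0.95 with an adjusted p of 0.0750, its replicate 1 at 11.5 CPM against 5.47 and 5.92 CPM in the others.

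Fold changes were small in most of the genes with the most reads. Of the 12 members with a mean of at least 10 CPM over the 6 libraries, 6 rose, with a median log2 fold change of 0.30. These 12 held 249.9 of the 378 CPM in the controls, so that they set most of the summed level. Of the 36 members between 2 and 10 CPM, 26 rose, with a median of 0.98, and their sum went from 116 to 223 CPM. Of the 22 below 2 CPM, 14 passed the filter and 5 rose (median 0.57). The family sum at 1.47-fold lay below the fold of the median gene, 1.83. These limits were set with the fold changes known, and differences between the 3 ranges were not tested.

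**Figure D3:**
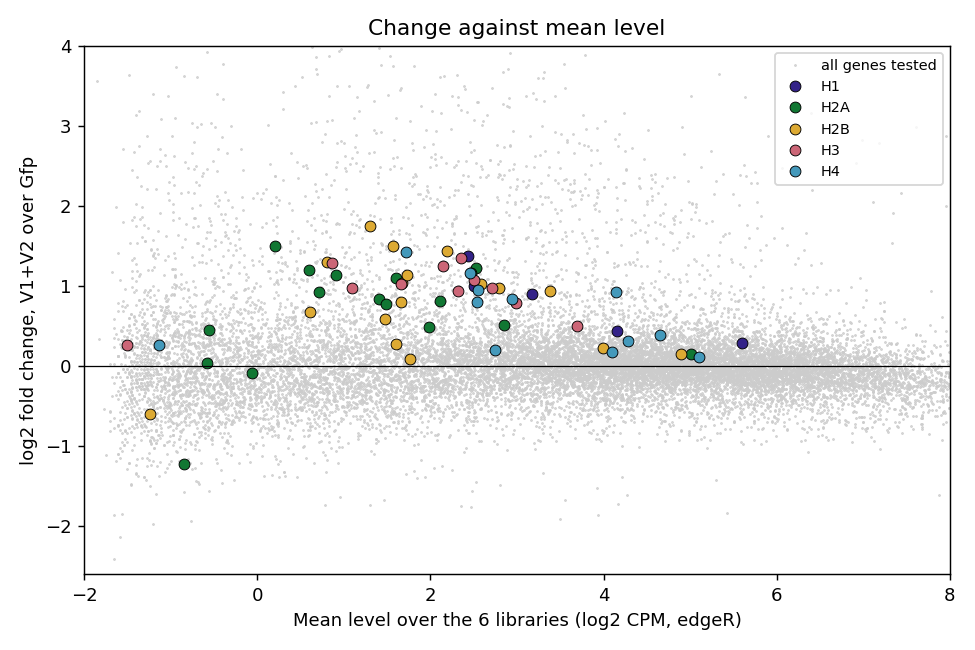
Log2 fold change (vertical axis) against mean level over the 6 libraries (horizontal axis, log2 CPM) for the 62 tested histone genes, coloured by class, over all 18593 genes tested in grey, of which 513 lie outside the axes. Most histone genes at intermediate level lie near a log2 fold change of 1, and those with a mean of at least 10 CPM lie between 0 and 0.5, except Hist1h4n at 0.92 and Hist1h2bk at 0.94.

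Copies of a class are so alike that reads can be hard to assign. Between H3 genes the coding sequences were 93.7% to 100% identical (median 97.2%), between H2B genes the median was 94.5%, between H4 genes 93.9%, between H2A genes 90.8% and between H1 genes 71.2%. At least 99% identity to another member was reached by 19 of the 70 genes, and 5 pairs were identical. How the authors' counting treated reads that fit several copies is not given in the sources used here, so that single values of these 19 genes are uncertain.

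Hist1h2ao and Hist1h2ap show this most plainly. Their coding sequences are identical, and their windows printed above match wherever both hold bases. Hist1h2ap rose, while Hist1h2ao had the lowest log2 fold change of all members, −1.22 (SE 0.55, adjusted p = 0.158), from 21, 15 and 32 reads to 6, 5 and 19 reads, with overlap. Without AAV5-V1+V2 replicate 3 it fell by 2.04 on the log2 scale (adjusted p = 0.0349). Summed with the 3 other near-identical genes Hist1h2ad, Hist1h2ae and Hist1h2ag, the pair gave 7.10, 7.07 and 9.13 CPM in the controls and 19.4, 12.5 and 13.2 CPM with AAV5-V1+V2, which is 1.94-fold without overlap. The other groups of near-identical genes gave 2.33-fold for Hist1h3g, Hist1h3h and Hist1h3i, 1.88-fold for Hist2h3b, Hist2h3c1 and Hist2h3c2, 1.89-fold for Hist1h4m and Hist1h4n, and 1.29-fold for Hist1h2bc, Hist1h2bj, Hist1h2bq and Hist1h2br, all without overlap. Hist2h2aa1 and Hist2h2aa2 together were at 1.19-fold with overlap.

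By position, 35 of the 51 tested genes on chromosome 13 rose (median 0.94), as did 2 of 8 on chromosome 3 (Hist2h2ac and Hist2h3c2, median 0.27), 0 of 2 on chromosome 11 and 0 of 1 on chromosome 6. Within chromosome 13 the genes at chr13:21715763-22043676 and those at chr13:23531050-23934851 gave similar counts, with 16 of 22 and 19 of 28 tested genes called and medians of 1.03 and 0.92. Of the 11 head-to-head H2A and H2B pairs with both genes tested, both rose in 3, 1 rose in 6 and neither rose in 2. Hist1h2ac was called at 0.84, a call lost with the replicate number as a block and in each of the 6 fits without 1 library, and Hist1h2bc across 250 bp from it was at 0.15.

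Rising genes were found with every length of annotated transcript past the stem-loop. Of 21 tested genes whose transcript ends within 100 bases after the stem-loop, near the site where histone 3′ processing cuts, 13 rose (median 0.94). Of 19 with a tail of at least 100 bases, which leaves room for a poly(A) site, 11 rose (median 0.78), and of 22 without a stem-loop in the model 13 rose (median 0.96). Summed, the short-tail genes went from 76.8 to 137 CPM and the long-tail genes from 193 to 255 CPM. Among stem-loop forms, 5 of 5 tested genes with C10A rose, 13 of 24 with the commonest form did, and 3 of 6 with T4C and A13G did. Of genes with the octamer in the promoter window 7 of 10 tested rose (median 0.98), and of those without it 28 of 45 did (median 0.90). For TATAAA the numbers were 23 of 32 with the motif (median 0.95) and 12 of 23 without it (median 0.58). Differences between these groups were not tested.

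Of the 70 genes, 8 did not pass the filter. Hist1h2aa, a testis-specific H2A gene, had 0 reads in all 6 libraries, and Hist1h1t and Hist1h2aj had at most 4 reads in any. Hist1h2ba, the testis-specific H2B gene, had 0 to 8 reads, Hist2h2bb 1 to 7, Hist1h4m 2 to 7, Hist3h2a 4 to 13 and Hist2h3c1 4 to 16. In the fit without the filter, 7 of the 8 were tested by edgeR and 0 were called, also at an unadjusted p under 0.05, with values from −0.54 for Hist3h2a to 1.33 for Hist1h2ba.

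Of 17 genes of factors that make and cut histone mRNA, all tested, 1 rose (5.88%, against 10.1% of all genes tested) and 0 fell, with a median log2 fold change of 0.06 (DESeq2 called 2 higher and limma-voom 1). The 1 that rose was Eri1, an exonuclease that trims the end of histone mRNA, from 12.6, 12.2 and 11.9 CPM to 20.1, 16.7 and 15.1 CPM (0.50, SE 0.12, adjusted p = 0.0349). Slbp, the stem-loop-binding protein, had groups that did not overlap (12.9, 13.4 and 14.1 CPM against 17.5, 16.2 and 16.1 CPM) and missed the threshold (0.30, SE 0.08, adjusted p = 0.0514). Npat, the coactivator of histone gene transcription, was at 0.06, its partner Casp8ap2 at 0.14, and Lsm11, a protein of the U7 particle, at 0.01 with SE 0.14. The uridylyltransferase gene Zcchc6 was at 0.28 (adjusted p = 0.0865) and Srrt, which joins the cap to RNA processing, at 0.20 (adjusted p = 0.0938).

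Chaperones that carry histones to DNA were called in 0 of 15 genes by edgeR, against 10.1% of all genes tested called higher (at an unadjusted p under 0.05, 8 higher and 0 lower, against 19.2% and 15.5% of all genes), 2 by DESeq2 and 0 by limma-voom, with a median of 0.19. The replication-coupled assembly factor genes Chaf1a and Chaf1b were at 0.59 and 0.68 (adjusted p = 0.0656 and 0.0600), Hat1, which acetylates new H4, at 0.34, and Rbbp4 at 0.20. A further list held 11 histone variant genes outside the family as selected here by symbol. Of these, 10 were tested, 5 rose (50%, against 10.1% of all genes tested) and 0 fell, with a median of 0.39. Cenpa, the H3 variant of centromeres, rose from 1.52, 1.90 and 1.76 CPM to 6.69, 3.48 and 3.0 CPM (1.34, SE 0.32), and replicate 1 was again the highest. H2afx, which carries a stem-loop of the histone kind as well, rose by 0.97 (SE 0.26, adjusted p = 0.0481). H2afy, H2afz and H3f3a rose by 0.51, 0.48 and 0.45.

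Genes of the dividing cell moved in the same direction. Of 40 genes of DNA replication and S phase, all tested, 9 rose (22.5%) and 0 fell, against 10.1% and 5.27% of all genes tested. At an unadjusted p under 0.05, 26 of the 40 were higher and 0 lower, against 19.2% and 15.5% of all genes tested. The median was 0.47. Among the 9 were Uhrf1, a factor for maintenance of DNA methylation, at 1.66 (SE 0.27) and the replicative helicase genes Mcm3, Mcm5 and Mcm6 at 1.32, 1.11 and 0.74. Of 26 genes of G2 and mitosis, 25 were tested, 18 rose (72%) and 0 fell, with a median of 1.00. Bub1b of the spindle checkpoint rose by 1.65 (SE 0.26), Ccnb1 (cyclin B1) by 1.49, Cdk1, the mitotic kinase, by 1.30 and Cdc20 by 1.15. The G2 and mitosis genes summed to 80.9, 89.3 and 89.0 CPM in the controls and to 246, 143 and 146 CPM in AAV5-V1+V2 replicates 1, 2 and 3. The S phase genes summed to 311, 316 and 309 CPM and to 492, 378 and 383 CPM. Without any 1 of the AAV5-Gfp libraries 0 genes of either list were called. In both lists replicate 1 was apart from replicates 2 and 3 and these were close to each other, as for the histone genes.

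Markers of immune cells were higher with AAV5-V1+V2, as the histone genes were. All 8 B and plasma cell markers rose (median 3.68), as did 7 of 8 T and NK cell markers (median 3.26) and 7 of 8 macrophage markers (median 1.68). Of all genes tested, 10.1% rose. In AAV5-Gfp replicates 1, 2 and 3 the B and plasma cell markers summed to 22.0, 12.0 and 13.1 CPM. The T and NK cell markers summed to 10.3, 3.84 and 4.71 CPM there, and the macrophage markers to 133, 124 and 85.8 CPM. Among the controls replicate 1 was thus the highest for each of these lists. The histone sums there were 368, 378 and 388 CPM in replicates 1, 2 and 3. In AAV5-V1+V2 replicates 1, 2 and 3 the B and plasma cell markers summed to 413, 283 and 262 CPM, the T and NK cell markers to 81.0, 43.9 and 37.0 CPM, and the macrophage markers to 449, 319 and 225 CPM. Neuron markers went the other way by their median of −0.43, while 1 of 11 fell (Rbfox3), against 5.27% of all genes tested, and 0 rose. At an unadjusted p under 0.05, 6 were lower, against 15.5% of all genes tested. In 8 of the 11 each AAV5-V1+V2 library lay below every control, against 22.0% of all genes tested. The neuron sums were 7984 to 8491 CPM in the controls and 4937, 6992 and 7339 CPM in the other group. AAV5-V1+V2 replicate 1 thus had the highest immune sums and the lowest neuron sum. In AAV5-V1+V2 replicates 2 and 3 the histone sums were 503 and 505 CPM. The B and plasma cell sums were 283 and 262 CPM there, the T and NK cell sums 43.9 and 37.0 CPM, and the macrophage sums 319 and 225 CPM. Of the other lists, 1 of 5 fibroblast markers rose (Col1a2, median of the list 0.43) and 1 of 5 endothelial markers rose (Pecam1, median 0.13). That is 20% in each, against 10.1% of all genes tested. At an unadjusted p under 0.05, 1 endothelial marker was higher and 1 lower, and 3 fibroblast markers were higher. For all genes tested the shares were 19.2% higher and 15.5% lower. Called were 0 of 7 Schwann cell, 0 of 5 satellite glia and 0 of 5 erythroid markers, with medians of 0.16, −0.01 and 0.11. At an unadjusted p under 0.05 edgeR had 1 Schwann cell and 1 erythroid marker higher and 1 satellite glia marker lower, and neither DESeq2 nor limma-voom called any of these 3 lists. Without AAV5-Gfp replicate 2 or replicate 3, 1 B and plasma cell marker and 0 of the T and NK cell and macrophage markers were called. The part of these cell types in the difference in histone transcripts was not tested.

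**Figure D4:**
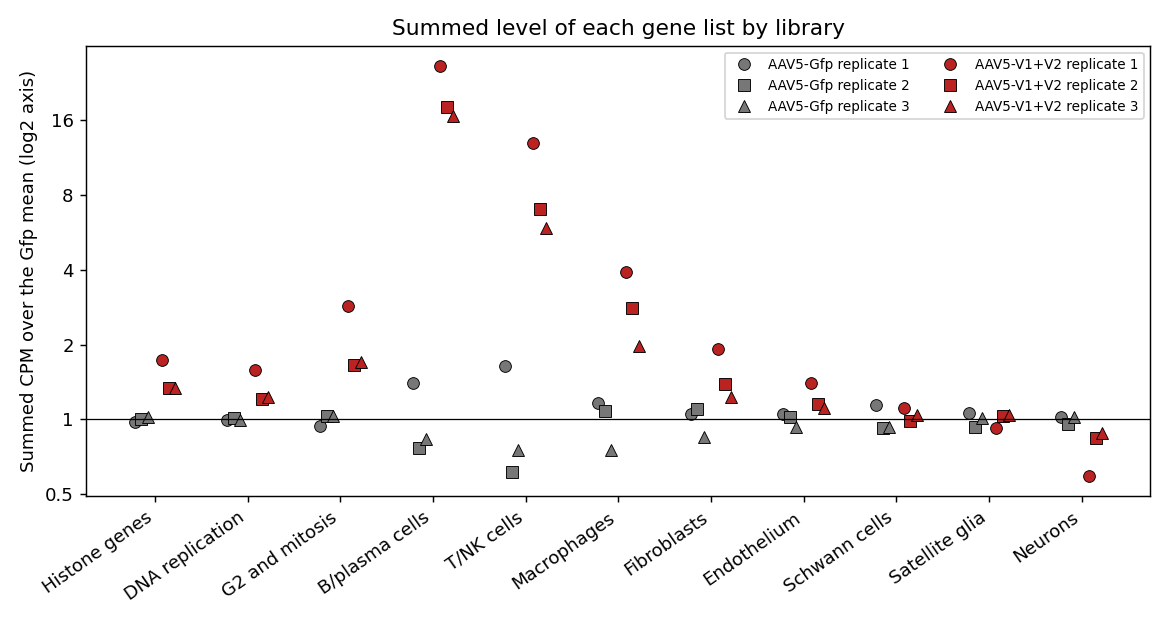
Summed CPM of each gene list in each library, divided by the mean of the AAV5-Gfp libraries (vertical axis, log2 scale, 1 is the control mean). AAV5-V1+V2 replicate 1 is the highest of all libraries for the histone genes (1.73), DNA replication (1.58), G2 and mitosis (2.85) and the B cell, T cell and macrophage markers, and the lowest for the neuron markers (0.59).

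How the number of histone calls depends on the fit is shown by the fits side by side. The fit with the replicate number as a block is not drawn. It gave 34 histone genes higher and 1 lower, with a median log2 fold change of 0.85. With another scaling, filter or test on all 6 libraries the number of genes higher lay between 29 and 41. The median log2 fold change lay between 0.82 and 0.94. The 29 were found by limma-voom and the 41 by DESeq2, which held all 37. Of the 37 calls, 23 were kept in every fit on all 6 libraries and in every fit without 1 AAV5-V1+V2 library. The other 14, lost in at least 1 of these fits, were Hist1h1c, Hist1h1e, Hist1h2ac, Hist1h2ad, Hist1h2ak, Hist1h2bq, Hist1h3a, Hist1h3c, Hist1h3d, Hist1h3f, Hist1h3g, Hist1h4f, Hist1h4h and Hist2h2ac.

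**Figure D5:**
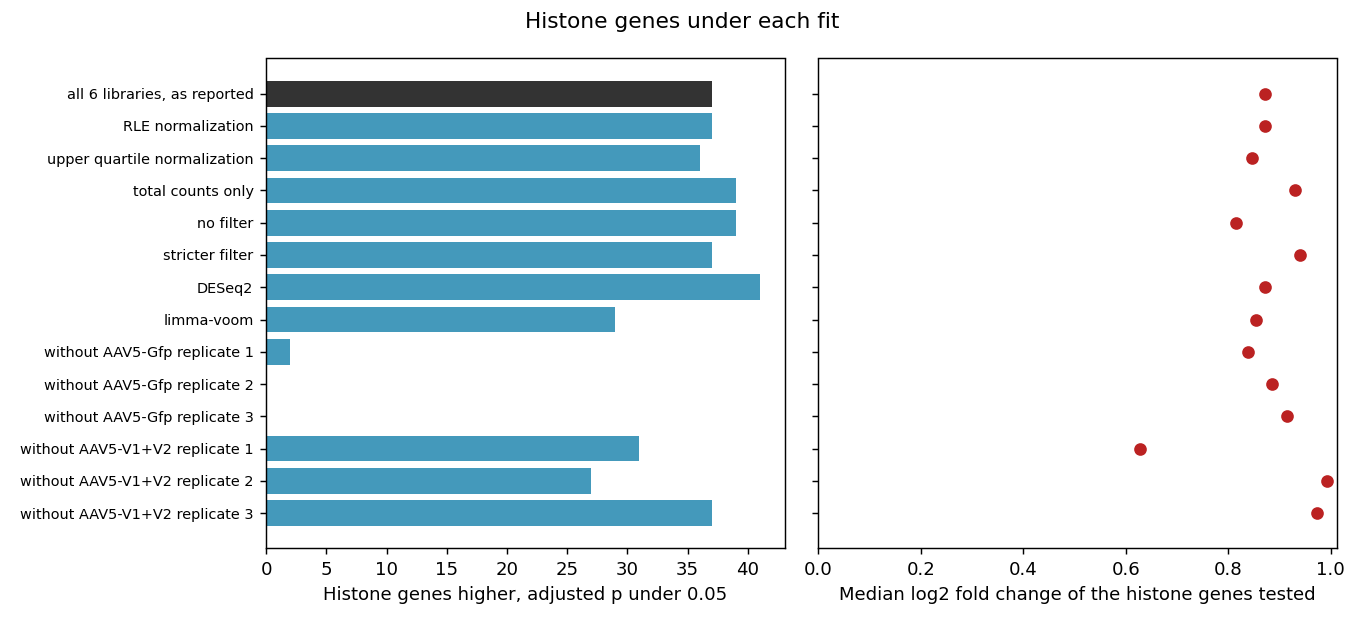
Number of histone genes called higher (left, bars from 0) and median log2 fold change of the tested histone genes (right) by fit. The fit with the replicate number as a block is not drawn. The number falls to 2, 0 and 0 when an AAV5-Gfp library is left out, while the median stays at 0.84 to 0.91, and it is lowest, 0.63, without AAV5-V1+V2 replicate 1.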

How the data were processed

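RNA sequencing data of 6 mouse DRG libraries (3 AAV5-Gfp, 3 AAV5-V1+V2) were analysed from the raw read counts per gene that the authors deposited as whole numbers in 1 table. The submitters' processing notes name GRCm38 and mm10. Aligner, counter, annotation, use of strand and treatment of multimapping reads are not given in the sources used here. In R 4.3.3, edgeR 4.0.16 was run over all genes (filterByExpr, TMM, glmQLFit and glmQLFTest, no covariate), with Benjamini-Hochberg adjustment over the 18593 genes tested. The SE was computed as the absolute coefficient over the square root of F. The fit was tested on simulated data. Members were selected by symbol. Named genes were, per class, the 3 with the highest level and the 3 with the smallest p, the extremes of fold change, up to 30 called members, and at most 4 genes per pathway list plus Slbp, Npat, Casp8ap2 and Lsm11; every other gene named was chosen after its values were seen. The members and lists were chosen with earlier results of these data known. Gene models are from GENCODE M21 and promoters from RefSeq GRCm38.p6. Coding sequences were aligned globally with Biopython 1.88. Alternatives were other normalizations and filters, DESeq2 1.42.0, limma-voom 3.58.1, the replicate number as a block, 2 further thresholds, and fits with 1 library removed.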

Additional observations from a re-analysis of the deposited data

How the results depend on the processing

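Leaving out 1 library at a time gave 0 to 37 histone genes higher and 0 to 1 lower, and 12 to 2474 of all genes higher and 0 to 1446 lower, the low numbers coming without an AAV5-Gfp library (the cause was not tested). With a 2-fold change required as well, 20 histone genes, 1052 of all genes higher and 47 of all genes lower were called. At an adjusted p under 0.1, 2898 of all genes were higher and 2030 lower, and DESeq2 called 1606 of all genes lower. Same-numbered libraries of the 2 groups had correlations of 0.036, 0.066 and 0.107, and libraries with unlike numbers between −0.104 and 0.043. Not every library correlated best with its own number, since AAV5-V1+V2 replicate 1 did so with AAV5-Gfp replicate 2. With the replicate number as a block, 34 histone genes were higher and 1, Hist1h2ao, lower. In that fit 2118 of all genes were higher and 1341 lower. The gene Lsm11 turned negative with upper quartile scaling (−0.0143), limma-voom (−0.0009) and 3 of 6 fits without a library (range −0.11 to 0.11). Among the lists, DESeq2 gave 2 processing factors, 2 chaperones, 17 S phase genes and 3 fibroblast markers higher and 6 neuron markers lower, and limma-voom 3 histone variants. Total counts gave 2 processing factors, 4 chaperones, 15 S phase genes and 3 fibroblast markers, the stricter filter 2 processing factors, and no filter 3 fibroblast markers higher and 4 neuron markers lower. With the block, 2 fibroblast markers were higher, and 4 neuron and 1 satellite glia markers lower. At an adjusted p under 0.1, 4 processing factors, 8 chaperones, 22 S phase genes and 3 fibroblast markers were higher and 5 neuron markers lower. With a 2-fold change required, the S phase list kept 5, the G2 and mitosis list 10 and the variants 1, and the processing factors, neuron, fibroblast and endothelial markers 0. Leaving out 1 library gave 0 to 2 processing factors, 0 to 4 chaperones, 0 to 5 variants, 0 to 14 S phase genes, 0 to 17 G2 and mitosis genes, 1 to 8 B and plasma cell, 0 to 7 T and NK cell, 0 to 8 macrophage, 0 to 2 fibroblast, 0 to 1 endothelial and 0 to 1 erythroid markers higher, and 0 to 6 neuron markers lower. Each class sum kept its direction under every alternative run. With 3 libraries a group, a permutation test of 1 value cannot go below p = 0.10, and genes with few reads had wide errors.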
